A study of Arabidopsis thaliana with 12 samples.

Results

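This report describes 4 genes of the flavonoid pathway, DFR, BAN, UGT78D1 and UGT78D2, in developing seeds of Arabidopsis thaliana. They were found by matching the listed gene symbols to probe sets that the array annotation pairs with exactly 1 gene, and each had 1 probe set. They are 4 of 13350 genes with a probe set of their own on the array, which held 22746 probe sets other than controls. A 5th listed symbol, CHI, also matched 1 probe set, but both the annotation and the TAIR10.1 gene table give it to AT2G43570, a chitinase gene. Chalcone isomerase, the flavonoid enzyme often abbreviated CHI, is the gene TT5 (AT3G55120) in that table and is not analysed here. The chitinase probe set is therefore given apart and counted in no number on flavonoid genes.

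RNA came from whole seeds taken out of siliques, so a transcript level cannot be assigned to the seed coat or to any other tissue of the seed. The 4 groups were wild-type Col-0 and homozygous abi3-6 seeds, each sampled at 12 and at 16 days after flowering (DAF), from plants grown under long days. The mutant carries a lesion in ABI3, a transcription factor of seed maturation, and was compared as 1 allele in the seeds of homozygous plants. Each group had 3 arrays, labelled as biological replicates and described as coming from 3 batches of plants, and every p-value rests on the spread between these arrays. The level of ABI3 itself is not reported here, so the genotype labels were not checked by it.

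Flavonoids are built from phenylpropanoids by a chain of enzymes that starts with chalcone synthase and chalcone isomerase. Dihydroflavonols then go either to flavonols, which are stored in seeds as glycosides, or through DFR to leucoanthocyanidins, from which anthocyanins and proanthocyanidins are made. In Arabidopsis the proanthocyanidins, or condensed tannins, accumulate in the innermost layer of the seed coat and turn brown as the seed matures, and mutants that lack them have pale, transparent testas.

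Values are the deposited expression values on a log2 scale, so a difference of 1 unit is a doubling. A value under 3.16, the 40th percentile of all values, is called dim. The test covered the 14873 probe sets that reached that limit on 3 or more of the 12 arrays. All 4 flavonoid genes were tested. DFR, UGT78D1 and UGT78D2 were at or above the limit on all 12 arrays, and BAN on 3. A gene passed where its p from limma, adjusted by Benjamini-Hochberg over all probe sets tested, was under 0.05. Arrays of 1 group correlated with r between 0.990 and 0.996 over probe sets. The 12 DAF and 16 DAF arrays carry differently formed file names in the labels, and any difference in array handling between the ages cannot be told apart from age. The titles of the wild-type 12 DAF samples also number their replicates in another form than those of the other 3 groups, and what this marks is not given in the sources used here. If it marks a separate set of samples, that cannot be told apart from genotype at 12 DAF or from the interaction. The log2 signal of an actin control probe set at the 3′ end minus that at the 5′ end, which reflects RNA integrity and labelling, was compared for both pairs of such probe sets on the array. In the first pair it was 4.89 ± 0.14 in wild type and 5.22 ± 0.08 in abi3-6 at 12 DAF, and 4.71 ± 0.14 and 5.04 ± 0.35 at 16 DAF, where the genotypes overlapped (SD, n = 3). In the other pair it was -0.37 ± 0.17 and 0.37 ± 0.09 at 12 DAF, and -0.21 ± 0.02 and 0.37 ± 0.03 at 16 DAF (SD, n = 3). The genotypes did not overlap in either pair at 12 DAF or in the second pair at 16 DAF, with abi3-6 higher, and the part of these signals in the differences below was not tested.

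The genotypes differed in opposite directions at the 2 ages for DFR and for UGT78D2, and in 1 direction at both ages for UGT78D1. In abi3-6 DFR was lower at 12 DAF and higher at 16 DAF, UGT78D2 was higher at 12 DAF and lower at 16 DAF, and UGT78D1 was higher at both. BAN was near or under the dim limit in every group and its genotype differences did not pass. At 12 DAF, 2 of the 4 genes passed as higher and 1 as lower, where 50.8% of all probe sets tested passed, 27.1% higher and 23.7% lower. At 16 DAF again 2 passed as higher and 1 as lower, against 70.2% of all probe sets, 35.6% higher and 34.6% lower. With shares this large, the number of genes that passed is near the background, and the values themselves carry the description.

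**Figure D1:**
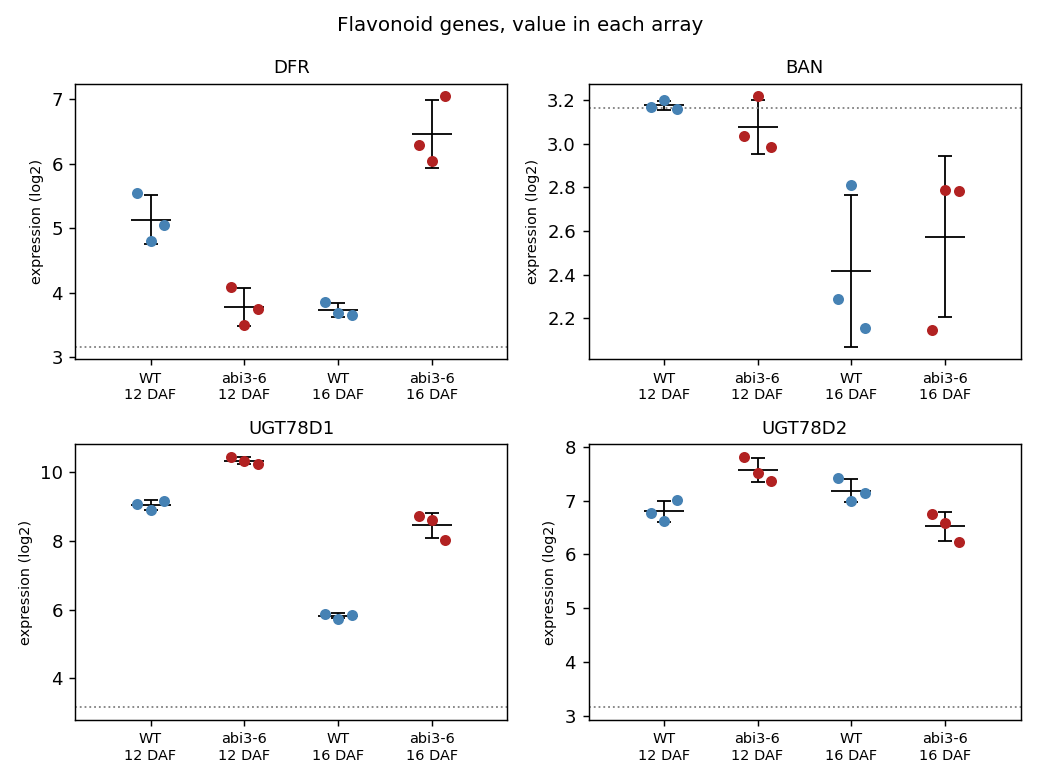
Expression (log2, y axis, a separate range in each panel) of DFR, BAN, UGT78D1 and UGT78D2 in each of the 12 arrays, by group (x axis; WT, wild type). Points are arrays, horizontal lines with bars are means ± SD of 3 arrays, and the dotted line is the dim limit of 3.16. DFR was highest in abi3-6 at 16 DAF, at 6.04 to 7.05, UGT78D1 was lowest in wild type at 16 DAF, at 5.74 to 5.87, and BAN lay at or under 3.22 on every array.

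DFR (AT5G42800) encodes dihydroflavonol reductase, the step that opens the branch to anthocyanins and proanthocyanidins. In wild type at 12 DAF its replicates read 5.54, 4.80 and 5.05, and in abi3-6 at 12 DAF 4.09, 3.50 and 3.74. All mutant arrays lay below all wild-type arrays. The difference was -1.36 ± 0.25 log2 units (SE, n = 3 per group), or 2.56-fold lower (limma, Benjamini-Hochberg adjusted p = 0.000512).

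At 16 DAF the order of the genotypes was the opposite. DFR read 3.86, 3.69 and 3.65 in wild type and 6.29, 6.04 and 7.05 in abi3-6. Here all mutant arrays lay above all wild-type arrays, with replicate 3 of abi3-6 the highest of the 12 arrays. The mutant was 6.64-fold higher (2.73 ± 0.25 log2 units, SE, limma, Benjamini-Hochberg adjusted p = 3.46e-07).

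The change with age accordingly ran in opposite directions. DFR fell by 1.40 ± 0.25 log2 units from 12 to 16 DAF in wild type and rose by 2.69 ± 0.25 in abi3-6 (SE, limma, Benjamini-Hochberg adjusted p = 0.000245 and 1.14e-06). The interaction of genotype and age was 4.09 ± 0.36 log2 units (SE, limma, Benjamini-Hochberg adjusted p = 1.54e-06). In the order of the 4 group means, abi3-6 at 16 DAF was above wild type at 12 DAF, by 1.33 ± 0.25 (SE, limma, Benjamini-Hochberg adjusted p = 0.000331), and wild type at 12 DAF was above the other two. Those 2, abi3-6 at 12 DAF and wild type at 16 DAF, overlapped at means of 3.78 and 3.73 and were not distinguished (95% confidence interval of the difference -0.59 to 0.50, limma, Benjamini-Hochberg adjusted p = 0.883).

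BAN (AT1G61720) encodes anthocyanidin reductase, which acts after DFR and is the enzyme committed to proanthocyanidins. At 12 DAF it read 3.17, 3.20 and 3.16 in wild type and 3.03, 3.22 and 2.98 in abi3-6. At 16 DAF it read 2.29, 2.81 and 2.15 in wild type and 2.15, 2.79 and 2.79 in abi3-6. Only 2 wild-type arrays and 1 abi3-6 array at 12 DAF were at or above the dim limit, and none at 16 DAF, and the genotypes overlapped at both ages.

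The genotype difference of BAN was -0.10 at 12 DAF (95% confidence interval -0.52 to 0.33) and 0.16 at 16 DAF (-0.27 to 0.58), and neither passed (limma, Benjamini-Hochberg adjusted p = 0.707 and 0.495). A gene this dim gives only a bound on its level, and these intervals describe values near background. The same holds for its ages: BAN passed as lower at 16 than at 12 DAF in both genotypes, but no size is given, since both ages were near or under the limit. All 3 BAN arrays at or above the limit were at 12 DAF, so the filter itself favours a call as lower at 16 DAF. In abi3-6 that call was lost in 10 of 18 alternative settings: no filter, the fit on the 2 groups alone, and leaving out any 12 DAF array, wild type 16 DAF replicate 1 or abi3-6 16 DAF replicate 1 (limma, Benjamini-Hochberg adjusted p from 0.024 to 0.227 over the settings).

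UGT78D1 (AT1G30530) encodes a glycosyltransferase that attaches rhamnose to flavonols. At 12 DAF it read 9.08, 8.90 and 9.15 in wild type and 10.45, 10.32 and 10.24 in abi3-6. At 16 DAF it read 5.87, 5.74 and 5.86 in wild type and 8.72, 8.61 and 8.02 in abi3-6. The mutant arrays lay above the wild-type arrays at both ages.

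Its genotype difference was 2.44-fold at 12 DAF (1.29 ± 0.17 log2 units, SE, limma, Benjamini-Hochberg adjusted p = 2.99e-05) and 6.18-fold at 16 DAF (2.63 ± 0.17, adjusted p = 9.35e-09). The wider gap at 16 DAF was itself past the threshold, with an interaction of 1.34 ± 0.24 (SE, limma, Benjamini-Hochberg adjusted p = 0.000623). With age UGT78D1 fell by 3.22 ± 0.17 log2 units or 9.32-fold in wild type and fell by 1.88 ± 0.17 or 3.68-fold in abi3-6 (SE, limma, Benjamini-Hochberg adjusted p = 2.22e-09 and 8.59e-07). In decreasing order the groups were abi3-6 at 12 DAF, wild type at 12 DAF, abi3-6 at 16 DAF and wild type at 16 DAF. Every pair of neighbours in that order passed, the closest being wild type at 12 DAF and abi3-6 at 16 DAF, which differed by -0.59 ± 0.17 as abi3-6 minus wild type (SE, limma, Benjamini-Hochberg adjusted p = 0.0073).

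UGT78D2 (AT5G17050) encodes the family member that attaches glucose to flavonols and anthocyanidins. At 12 DAF it read 6.76, 6.63 and 7.02 in wild type and 7.81, 7.50 and 7.37 in abi3-6. At 16 DAF it read 7.41, 7.00 and 7.15 in wild type and 6.76, 6.58 and 6.24 in abi3-6. The groups did not overlap at either age, with the mutant above at 12 DAF and below at 16 DAF.

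These differences were smaller than those of DFR and UGT78D1. UGT78D2 was 1.69-fold higher in abi3-6 at 12 DAF (0.76 ± 0.18 log2 units, SE, limma, Benjamini-Hochberg adjusted p = 0.00299) and 1.58-fold lower at 16 DAF (-0.66 ± 0.18, adjusted p = 0.00472), or by -1.02 with each array centred on its median. The interaction was -1.42 ± 0.25 (SE, limma, Benjamini-Hochberg adjusted p = 0.000571). Between 12 and 16 DAF it fell by 1.04 ± 0.18 log2 units in abi3-6 (SE, limma, Benjamini-Hochberg adjusted p = 0.00028). In wild type the difference was 0.38 ± 0.18 and did not pass (95% confidence interval -0.0024 to 0.77, limma, Benjamini-Hochberg adjusted p = 0.0781), though it did with arrays centred on their medians, at 0.61, and without wild type 12 DAF replicate 3, at 0.49. Ordered by mean, the groups were abi3-6 at 12 DAF, wild type at 16 DAF, wild type at 12 DAF and abi3-6 at 16 DAF, and no pair of neighbours in this order passed (limma, Benjamini-Hochberg adjusted p = 0.0732, 0.0781 and 0.187).

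For the interaction, 2 of the 4 genes passed as positive and 1 as negative, where 40.1% of all probe sets tested passed, 21.2% positive and 18.9% negative. Between ages in wild type 3 of the 4 genes, BAN near the dim limit among them, passed as lower and 0 as higher, against 62.4% of all probe sets, 30.4% lower and 32.0% higher. In abi3-6 3, again with BAN, passed as lower and 1, DFR, as higher, against 50.6% of all probe sets, 23.5% lower and 27.1% higher. BAN was tested only through its 12 DAF arrays, so the filter favours its calls as lower and they lend no support. The median change of the 4 genes was 0.33 at 12 DAF and 1.39 at 16 DAF for abi3-6 minus wild type, beside medians of -0.0033 and -0.0278 over all probe sets tested. These medians mark no shared shift, since DFR, UGT78D1 and UGT78D2 did not all move in 1 direction at either age. Each also rests in part on BAN, at -0.10 and 0.16, which was near or under the dim limit.

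The 2 glycosyltransferases of flavonols were also set against each other within arrays, a comparison chosen after the differences above were seen and so given without a test. The difference between the log2 values of UGT78D1 and UGT78D2, which has no meaning as a level, was compared between the genotypes. It is free of a shift common to all values of an array, but not of processing that acts unevenly over signal levels. At 12 DAF it was larger in all 3 mutant arrays than in all 3 wild-type arrays, by 0.53. At 16 DAF it was larger by 3.29, a 9.79-fold change in the ratio. DFR changed against UGT78D2 by -2.12 at 12 DAF and by 3.39 at 16 DAF, again without overlap. DFR against UGT78D1 differed by -2.64 at 12 DAF and by 0.10 at 16 DAF, where the genotypes overlapped.

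**Figure D2:**
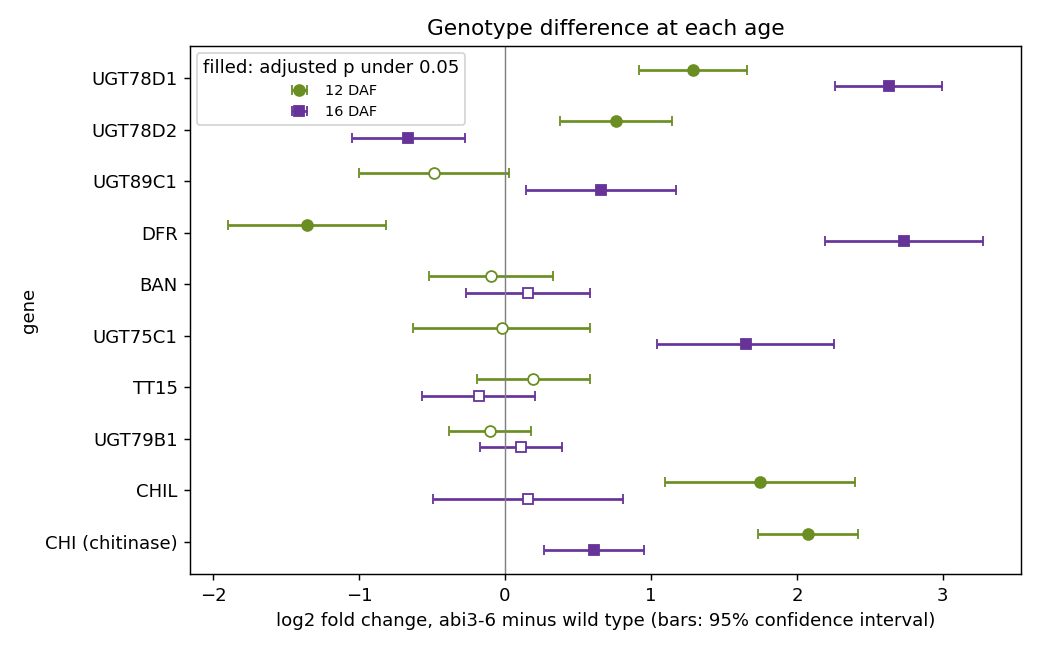
Log2 fold change of abi3-6 minus wild type (x axis) for 9 genes of the pathway lists and the chitinase CHI (y axis). Circles are 12 DAF and squares are 16 DAF. Bars are 95% confidence intervals from limma, and filled symbols passed at an adjusted p under 0.05. Sizes are fitted values, not measured changes, where all arrays of a group were dim. Those are UGT75C1 at both ages, BAN and CHIL at 16 DAF, and UGT79B1 and CHI at 12 DAF. The filter favours the filled symbols of CHIL at 12 DAF and UGT75C1 at 16 DAF, each tested only through its high group. DFR lay at -1.36 and 2.73, UGT78D2 at 0.76 and -0.66, and UGT78D1 at 1.29 and 2.63.

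The rest of the pathway was read from lists of phenylpropanoid, flavonoid, flavonol, anthocyanin and proanthocyanidin genes and their regulators. Of the 54 loci on these lists, 11 had a probe set of their own, the 4 above and 7 others, and 5 of those 7 were tested. The 8 phenylpropanoid entry genes and the 15 regulators were paired with no probe set of their own in the annotation used, which leaves 8730 probe sets unnamed, and they are not analysed here. At 12 DAF 1 of these 5 genes was higher in abi3-6, 0 were lower and 4 did not pass, where 50.8% of all probe sets passed. At 16 DAF 2 were higher, 0 lower and 3 did not pass, where 70.2% passed. CHIL, the gene higher at 12 DAF, and UGT75C1, among those higher at 16 DAF, were tested only through the group where they were high. The filter favours their calls, so these counts lend no support. No median change is given, since at each age the middle value came from a gene that was dim in both genotypes.

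CHIL (AT5G05270) encodes a chalcone isomerase-like protein without that enzyme's catalysis that raises flux into the pathway. It read 3.70, 2.75 and 2.99 in wild type and 5.34, 4.35 and 4.99 in abi3-6 at 12 DAF. The groups did not overlap, although only 1 wild-type array was above the dim limit. CHIL was higher in the mutant by a fitted 1.75 ± 0.30 log2 units (SE), a size that rests on a wild-type mean of 3.15, at the dim limit. It was tested only through the abi3-6 arrays at 12 DAF, where it is high. The filter favours such calls, so no p-value is given for CHIL. At 16 DAF all 6 arrays were dim, at 1.94 to 2.68, and no fold is given. From 12 to 16 DAF CHIL was at least 3.33-fold lower in abi3-6.

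UGT89C1 (AT1G06000) encodes a flavonol rhamnosyltransferase that acts on another position of the molecule than UGT78D1. With age it fell by 2.66 ± 0.24 log2 units in wild type and fell by 1.52 ± 0.24 in abi3-6 (SE, limma, Benjamini-Hochberg adjusted p = 3.42e-07 and 0.000129). At 16 DAF it read 6.80, 5.86 and 5.92 in wild type and 7.07, 6.79 and 6.69 in abi3-6, and the groups overlapped through the first wild-type array. The difference of 0.66 ± 0.24 passed (SE, limma, Benjamini-Hochberg adjusted p = 0.0244), but the call was lost in 5 of 20 alternative settings. Those were median centring (0.30), the fit on the 2 groups alone, and leaving out wild type 16 DAF replicate 2 (0.49) or 3 (0.52) or abi3-6 16 DAF replicate 1 (0.54). At 12 DAF the difference was -0.49 ± 0.24 and did not pass (adjusted p = 0.105), except after median centring (-0.61), with array weights (-0.63) and without wild type 16 DAF replicate 1 (-0.49).

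UGT75C1 (AT4G14090) encodes the glucosyltransferase that adds a further glucose to anthocyanins, products of the branch that DFR opens. It was dim on all 9 arrays of the other groups, at 2.31 to 2.74, and read 4.21, 3.64 and 5.21 in abi3-6 at 16 DAF. The mutant was at least 2.28-fold higher than wild type at 16 DAF. UGT75C1 reached the dim limit only on these 3 arrays, so it was tested only through the group where it is high. The filter favours such a call, and no p-value is given for it. Of the 3 mutant arrays at 16 DAF, replicate 3 was the highest and replicate 2 the lowest for UGT75C1, for DFR and also for the silique wall marker ALC and the seed coat marker ARA12. The seed coat marker DELTA-VPE was instead highest in replicate 1. Replicate 3 was the lowest of the mutant arrays at 16 DAF for UGT78D1, UGT78D2 and UGT89C1 and for the oleosins OLEO3 and OLEO5. Without replicate 3 the genotype difference at 16 DAF was 2.44 for DFR, 2.84 for UGT78D1 and -0.52 for UGT78D2, and each still passed. For UGT75C1 it was a fitted 1.22.

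TT15 (AT1G43620, named UGT80B1 in the table) encodes a sterol glucosyltransferase whose loss gives pale seeds. Its genotype differences did not pass, at 0.19 (95% confidence interval -0.19 to 0.58) at 12 DAF and -0.18 (-0.57 to 0.21) at 16 DAF, but that at 16 DAF was -0.54 and passed after median centring. It rose with age by 1.43 ± 0.18 in wild type and 1.06 ± 0.18 log2 units in abi3-6 (SE, limma, Benjamini-Hochberg adjusted p = 9.49e-06 and 0.000246). UGT79B1 (AT5G54060), which adds xylose to anthocyanins, was at 2.98 to 3.38 throughout and differed by -0.10 and 0.11 between genotypes, neither of which passed. UGT78D3 (AT5G17030), which lies beside UGT78D2 with 1 gene between them and transfers arabinose to flavonols, was dim on 11 of 12 arrays, and 5MAT (AT3G29590), an anthocyanin malonyltransferase, was dim on all 12. Neither was tested.

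**Figure D3:**
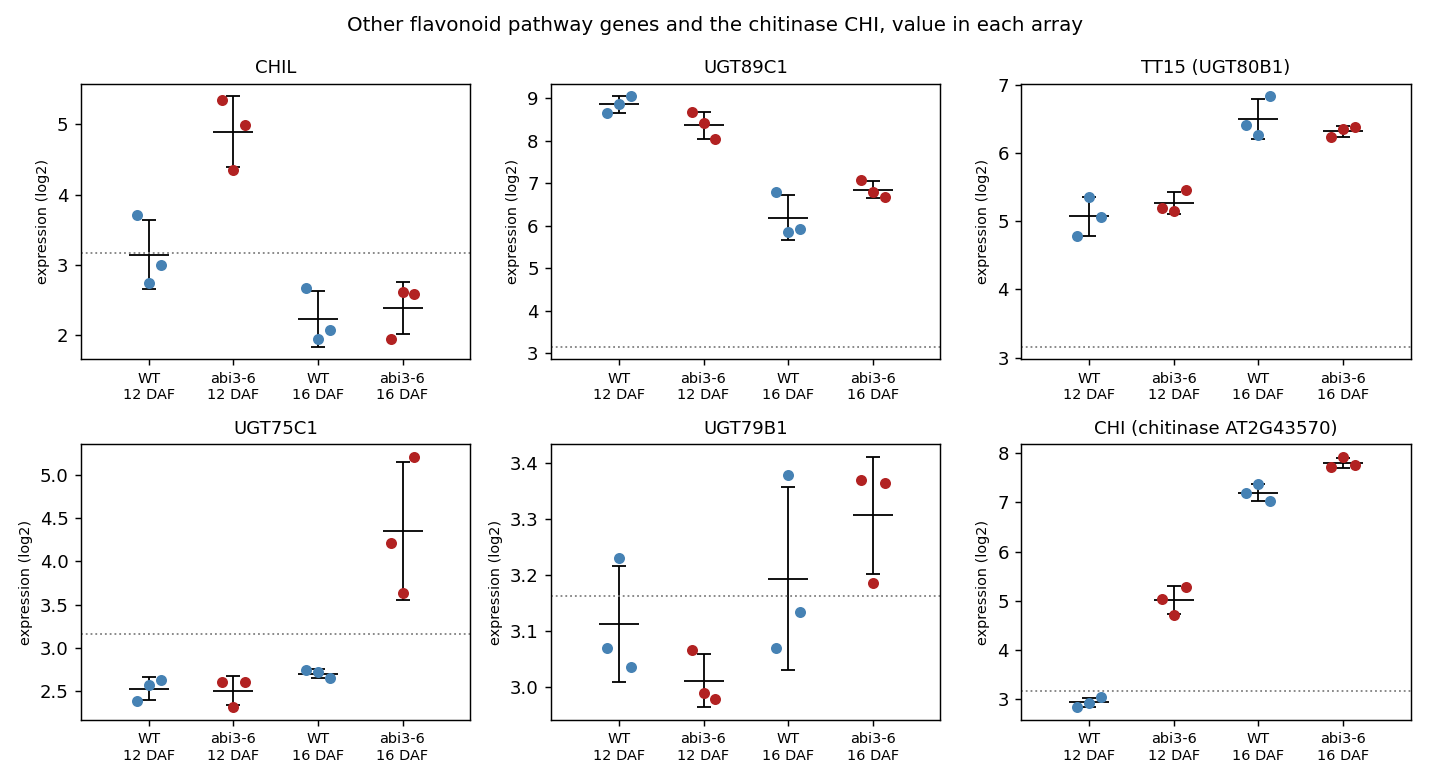
Expression (log2, y axis, a separate range in each panel) of CHIL, UGT89C1, TT15, UGT75C1 and UGT79B1 and of the chitinase CHI in each array, by group (x axis). Points are arrays, horizontal lines with bars are means ± SD of 3 arrays, and the dotted line is the dim limit. UGT75C1 passed the limit only in abi3-6 at 16 DAF, and CHIL reached 4.35 to 5.34 in abi3-6 at 12 DAF.

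The chitinase CHI (AT2G43570), of an enzyme class that cleaves chitin, is no step of the pathway and followed another course. It was dim in wild type at 12 DAF at 2.84, 2.91 and 3.04 and read 5.03, 4.71 and 5.28 in abi3-6, at least 3.59-fold higher (limma, Benjamini-Hochberg adjusted p = 1.31e-07). At 16 DAF it read 7.19, 7.38 and 7.03 in wild type and 7.72, 7.93 and 7.77 in abi3-6. It was thus higher in the mutant and higher at 16 DAF, by 0.61 ± 0.16 log2 units between genotypes at 16 DAF (SE, limma, Benjamini-Hochberg adjusted p = 0.00366), a call that was lost after median centring (0.25).

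Marker genes of seed tissues and of the silique wall were read as well. Of 12 seed coat loci listed, 3 had a probe set of their own. PER36, a peroxidase of mucilage cells, was dim on all 12 arrays at 2.36 to 2.70. DELTA-VPE, a protease of the inner seed coat layers, read 10.30, 10.48 and 9.79 in wild type and 8.62, 8.97 and 8.96 in abi3-6 at 12 DAF, and 6.80, 6.82 and 6.47 against 9.23, 8.95 and 9.06 at 16 DAF. It was lower in the mutant at 12 DAF, by -1.34 ± 0.19, and higher at 16 DAF, by 2.38 ± 0.19 log2 units (SE, limma, Benjamini-Hochberg adjusted p = 4.56e-05 and 6.3e-08), the same directions as DFR.

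ARA12, a subtilisin protease needed to release mucilage, was higher in abi3-6 by 0.52 ± 0.15 at 12 DAF and 1.45 ± 0.15 at 16 DAF (SE, limma, Benjamini-Hochberg adjusted p = 0.0127 and 1.46e-06). Its direction at 12 DAF was thus opposite to that of DELTA-VPE and DFR. The call at 12 DAF ended when arrays were quantile normalized (0.36) and when abi3-6 12 DAF replicate 1 was left out (0.40). ALC, a factor of the silique's valve margin and the 1 of 6 silique wall loci with its own probe set, ranged from 3.60 to 4.63 in wild type and from 2.92 to 3.18 in abi3-6 at 12 DAF, and from 2.70 to 3.30 and from 3.62 to 4.75 at 16 DAF. Its differences of -1.14 ± 0.29 and 1.34 ± 0.29 also had the directions of DFR (SE, limma, Benjamini-Hochberg adjusted p = 0.00522 and 0.000982), but in each the lower group was at the dim limit, with 1 of 3 arrays above it.

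AGL62, the 1 endosperm locus of 7 with its own probe set, was dim on all arrays at 2.34 to 2.84. The 3 embryo maturation genes with a probe set of their own, all oleosins, were lower in abi3-6 at both ages, but by unlike amounts. At 12 and 16 DAF OLEO5 changed by -0.98 and -3.86 and OLEO3 by -2.29 and -5.71. AT2G25890 was dim on all abi3-6 arrays, at least 652-fold lower at 12 DAF and at least 978-fold lower at 16 DAF. What part the amounts of seed coat, silique wall or embryo RNA had in the flavonoid differences was not tested. In whole seeds, fewer cells of a type and less RNA per cell cannot be told apart.

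**Figure D4:**
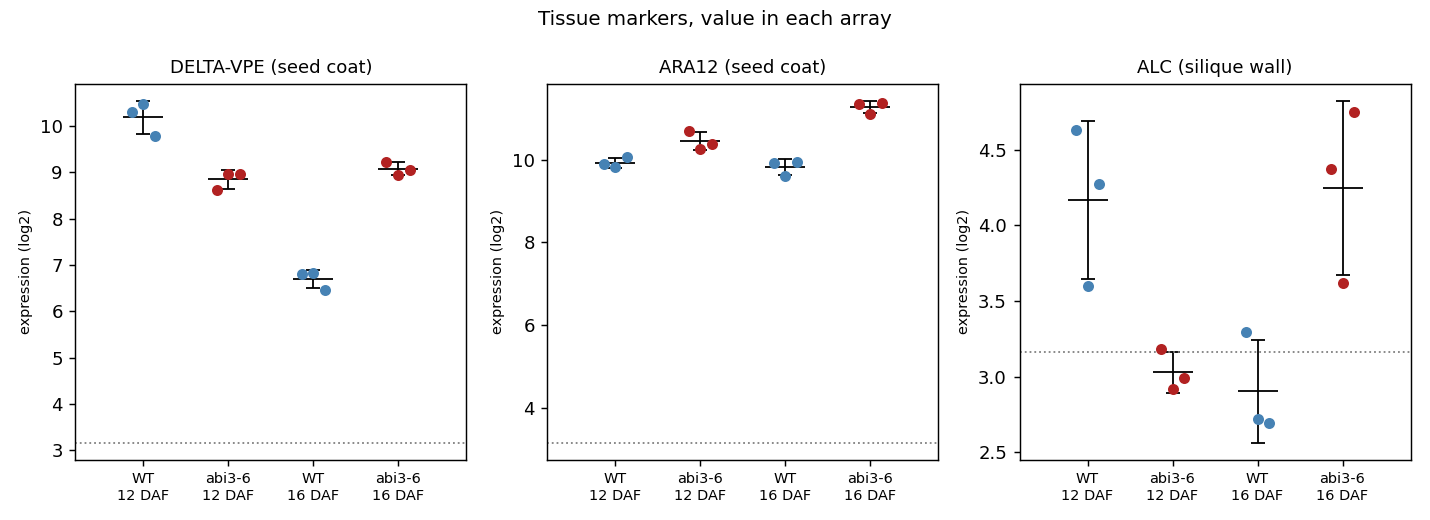
Expression (log2, y axis, a separate range in each panel) of the seed coat genes DELTA-VPE and ARA12 and of the silique wall gene ALC in each array, by group (x axis). Points are arrays, horizontal lines with bars are means ± SD of 3 arrays, and the dotted line is the dim limit. DELTA-VPE and ALC were lower in abi3-6 than in wild type at 12 DAF and higher at 16 DAF. ARA12 was higher in abi3-6 at both ages.

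The genes with the profiles most like each flavonoid gene were taken as the 3 highest Pearson correlations over the 12 arrays among tested probe sets with 1 gene. The arrays share 4 groups, so r follows mainly the group means and is a description. For DFR they were AT2G41780 (r = 0.961), AT1G35612 (0.943) and AT1G48330 (0.942). AT2G41780, for example, had group means of 5.07 and 4.24 at 12 DAF and 4.34 and 5.66 at 16 DAF, wild type first.

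For UGT78D1 the closest were AT5G15050 (r = 0.994), AT5G10160 (0.993) and AT2G40435 (0.990), and AT5G10160 had means of 8.45 and 9.70 at 12 DAF and 4.93 and 7.67 at 16 DAF. For UGT78D2 they were AT2G01410 (0.924), AT3G26380 (0.920) and AT5G39730 (0.907). For BAN they were AT4G01090 (0.923), LSM1B (0.921) and AT1G76270 (0.917), but there the likeness is to values at or under the dim limit.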

How the data were processed

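Total RNA of 12 seed samples was labelled with biotin after a 1-cycle cDNA synthesis and hybridised to 1-colour arrays, per the labels' protocols. The values used are those the authors deposited, read as log2 expression from their range of 1.49 to 15.89; no label states the scale, and centring by the authors is unknown. GCOS 1.3 and GCRMA 2.0.0 are named, with no role, per the submitters' processing notes; GCRMA subtracts a background modelled on probe sequence, which can compress or stretch differences of dim probe sets. Array medians were 4.27 to 4.34 and 4.41 to 4.45 (wild type, abi3-6) at 12 DAF and 4.05 to 4.10 and 4.43 to 4.46 at 16 DAF. The number of arrays limits the precision. No genome build was given for the deposited values in the sources used here, so the gene table served for names and neighbours and no coordinates are printed.

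Of 22746 probe sets other than the 64 controls, 13513 had 1 gene, 503 several and 8730 none in the annotation, and 13508 of the first matched the TAIR10.1 gene table. Groups were compared in limma 3.58.1 (R 4.3.3) by a linear model over the 12 arrays with 1 mean for each group (moderated variances, with 8 degrees of freedom from the residuals and 5.41 from the prior). The model was also run on simulated data in which few probe sets were changed, by genotype only and alike at both ages. That run held no change with age, no interaction and no share of changed probe sets as large as here, so it says nothing on these. The genotypes were compared within each age (abi3-6 minus wild type) and the ages within each genotype, together with the interaction of both and with the remaining pairs of groups for the order of means. Where all arrays of 1 group were dim, "at least" folds set the mean of the other group against the dim limit. Alternatives were median centring, quantile normalization, no filter, a filter at the 50th percentile, robust moderation with a trend, array weights, the groups of a contrast alone, the replicate block and each array left out. Differences between genes within arrays were chosen after the data were seen.

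The members and lists were chosen with earlier results of these data known. Named genes are the members, every listed gene with its own probe set, and the 3 most alike genes per member. AT3G15520 was entered in the seed coat list by mistake and was left out. Tables were written in Python 3.11.15 and figures drawn with matplotlib 3.10.9.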

Additional observations from a re-analysis of the deposited data

Results flagged for a closer look

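The genotype difference at 16 DAF minus that at 12 DAF (the interaction, log2) passed for 3 of the 4 flavonoid genes, DFR (4.09), UGT78D1 (1.34) and UGT78D2 (-1.42), in limma after Benjamini-Hochberg adjustment. For DFR and UGT78D2 the difference changed sign between the ages. It also passed for UGT89C1 (1.14) of the wider pathway and for the chitinase CHI (-1.47). CHIL (-1.59) and UGT75C1 (1.67) passed too, but each was tested only through the group where it was high, which favours such a call. Among the markers the interaction passed for DELTA-VPE (3.72), ARA12 (0.94), ALC (2.48), and the oleosins OLEO3 (-3.42), OLEO5 (-2.88) and AT2G25890 (-0.77). Fitted values that rest on groups with all arrays dim are those of CHIL (both groups at 16 DAF), UGT75C1 (every group but abi3-6 at 16 DAF), CHI (wild type at 12 DAF) and AT2G25890 (both abi3-6 groups), and their sizes are not measured changes; the lower groups of ALC had 1 of 3 arrays above the limit. Since 40.1% of all probe sets passed this test, a passing interaction is common in these data.

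A probe set that the annotation shares between 2 genes of the anthocyanin list, and from which no gene is named, entered no gene comparison above. It was counted only among all probe sets tested. It was dim on the 9 arrays of the other groups and had a mean of 4.32 ± 0.93 log2 units in abi3-6 at 16 DAF (SD, n = 3), with arrays at 5.01, 3.27 and 4.67, above the 2.33 to 2.59 of wild type at that age.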

How the results depend on the processing

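The genotype differences and interactions of DFR, UGT78D1 and UGT78D2 kept their direction and stayed past the threshold in all 177 alternative values, and those of BAN passed in none of 53. BAN could not be tested with the 50th percentile filter or after median centring, where it was left out as dim. Across the 5 further pathway genes 9 of 289 such values changed side. The number of the 4 genes that passed was 3 under every array left out for both genotype contrasts and the interaction, 3 to 4 for age in wild type and 3 to 4 for age in abi3-6. Among the other settings the number for age in wild type fell to 2 at the lowest. With the chitinase counted, chosen after the data were seen, the numbers were 4, 4, 4, 4 and 5.

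Median centring moved the median of all probe sets by over 0.1, to -0.14 at 12 DAF, -0.41 at 16 DAF, -0.26 for the interaction and 0.31 for age in wild type. It turned the split of calls to 3373 higher and 4648 lower (4030 and 3530 as deposited), 3976 and 7558 (5288 and 5151), 2341 and 4201 (3155 and 2816), and 6758 and 3719 (4762 and 4519). Under it UGT78D2 was -1.02 and UGT78D1 2.27 at 16 DAF.

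Arrays with the same replicate number did not deviate together throughout (r from -0.02 to 0.16, over 0.1 in 2 of 12 pairs), though at 12 DAF all 6 arrays correlated best with their own number across genotypes. With the replicate block 3, 3, 3, 3 and 4 of the 4 genes passed, as without it, and 7555, 10456, 6002, 9293 and 7571 probe sets in all, against 7560, 10439, 5971, 9281 and 7522. No member had a second probe set to try. Signals near the dim limit leave BAN, UGT79B1, UGT78D3 and 5MAT without a usable level.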
